A study of Homo sapiens with 4 samples.

Results

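The aminoacyl-tRNA synthetases were examined in A549 cells exposed to embelin. Members were the probes, control spots left out, whose description on the array contained "tRNA synthetase", without pseudogenes and without proteins described as interacting with a synthetase. This gave 50 of the 50238 probes, for 39 of the 17649 genes that could be tested. A member was counted as mitochondrial where the description said so or where the gene name on the array ended in 2, and as cytosolic otherwise, which gave 21 cytosolic genes (27 probes) and 18 mitochondrial genes (23 probes).

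A549 cells derive from a human adenocarcinoma of the lung. Embelin, a plant product, is a benzoquinone that carries a long alkyl chain. Untreated control cells were compared with cells given 15 µM embelin, both at 4 h, after the medium of all cultures had been changed to one with 2% serum 12 h before the treatment. Each group had 2 samples, each hybridised in a single colour (Cy3) to 1 whole-genome oligonucleotide array, all on 1 slide. Control replicates 1 and 2 were at slide positions 4 and 1, and embelin replicates 1 and 2 at positions 2 and 3. The labels do not say whether the samples were separate cultures, so the p-values measure only the spread between these samples, which may be technical. In bulk RNA, a lower signal from fewer cells that express a gene and from less RNA per cell cannot be told apart.

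These enzymes attach each amino acid to its transfer RNA, the step that sets which amino acid a codon stands for. Most amino acids have a cytosolic enzyme, which serves the ribosomes of the cytosol, and another that is also encoded in the nucleus and is imported to serve the ribosomes of the mitochondrion. Uncharged transfer RNA activates the kinase GCN2, whose signal raises translation of the transcription factor ATF4, and many cytosolic synthetase genes are textbook targets of ATF4 through the C/EBP-ATF response element.

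The core of that element, TTGCATCA, was therefore looked for on both strands of the members' promoters, taken as 250 bases before to 50 bases after each gene start in RefSeq (GRCh38.p14). Promoters were matched for 31 of the 39 genes, 17 cytosolic and 14 mitochondrial. The core was found in 6 of the 17 cytosolic genes (35.3%) and in 0 of the 14 mitochondrial genes, against 1.08% of the 27305 genes in the table (304 of 35116 promoters, 0.866%). The windows that hold it are shown because this sequence separates part of the cytosolic genes from the mitochondrial ones independently of any signal on the arrays. Each window has 30 bases, reads 5′ to 3′ on the strand of the gene, and has the match in capitals. The match is on the opposite strand in NARS1.
CARS1, chr11:3057407-3057436, minus strand: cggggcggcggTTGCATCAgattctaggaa
NARS1, chr18:57621804-57621833, minus strand: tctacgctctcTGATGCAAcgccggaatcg
IARS1, chr9:92293692-92293721, minus strand: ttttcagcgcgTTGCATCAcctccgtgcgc
TARS1, chr5:33440956-33440985, plus strand: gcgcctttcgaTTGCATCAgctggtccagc
AARS1, chr16:70289675-70289704, minus strand: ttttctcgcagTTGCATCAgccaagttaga
MARS1, chr12:57488053-57488082, plus strand: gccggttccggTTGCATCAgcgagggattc

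The match lay across or just after the gene start in CARS1, MARS1, TARS1 and NARS1, just before it in IARS1, and farther upstream in AARS1, where its bases are -187 to -180. A looser form, TGATGNAA, which includes the core read on the other strand, was found in 7 of the 17 cytosolic genes (41.2%) and 1 of the 14 mitochondrial genes (7.14%), against 4.46% of all genes. The genes it added are shown next, with the match again in capitals and, in GARS1, on the opposite strand.
GARS1, chr7:30594834-30594863, plus strand: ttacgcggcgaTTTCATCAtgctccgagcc
YARS2, chr12:32756076-32756105, minus strand: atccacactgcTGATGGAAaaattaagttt
A match of letters is a description of these windows and not a measured binding site, and genes without it were not searched beyond them.

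The signals were the scanner's background-subtracted intensities, scaled so that the 75th percentile was equal on the 4 arrays and put on the log2 scale. All 39 genes were well above background on all 4 arrays, so that no member was kept or lost through 1 group, and 3 of the 50 probes were too dim to be used (1 each of FARSB, MARS2 and AARSD1, whose brighter probes stand for them). Over all probes the share well above background was 50.3% to 66.7%, and 1 array of each group was at the lower end. The 10 epithelial and A549 markers (among them KRT8, KRT18 and EPCAM) were well above background on every array. With embelin, 9 of the 10 lay below 0 (median log2 fold change -0.14), where 56.1% of all genes did. In 5 of the 10 (50%) both embelin arrays lay below both controls, where 30.7% of all genes measured on the 4 arrays did. Of 11 leukocyte, fibroblast and endothelial markers, 4 passed the filter on dim probes (CD3E, CD14, COL1A1 and PDGFRA) and 2 were well above background on every array, CD14 and COL1A1. The COL1A1 probe read 6.38 and 6.28 in the controls and 7.57 and 7.70 with embelin (adjusted p = 0.0546 by limma). The CD14 probe read 9.40 and 9.68 in the controls and 9.07 and 8.81 with embelin (-0.60 in log2, adjusted p = 0.232 by limma). The part of these markers in the results was not tested.

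After Benjamini-Hochberg adjustment over all genes, limma called 0 of the 39 synthetase genes at an adjusted p under 0.05, where 1.81% of all 17649 genes were called (1.25% higher and 0.561% lower with embelin). The lowest adjusted p of a member was 0.116. At an unadjusted p under 0.05, limma counted 3 members higher and 4 lower, against 8.36% higher and 11.1% lower among all genes, so the 7 of 39 were near the 19.5% of all genes. No member differed 2-fold, whereas 8.26% of all genes differed at least 2-fold with an unadjusted p under 0.05 (4.27% higher and 3.99% lower). The Student's t-test named in the study's methods, run on the same values, gave 2 members higher and 5 lower without adjustment (15.5% of all genes in either direction) and 0 after it.

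**Figure D1:**
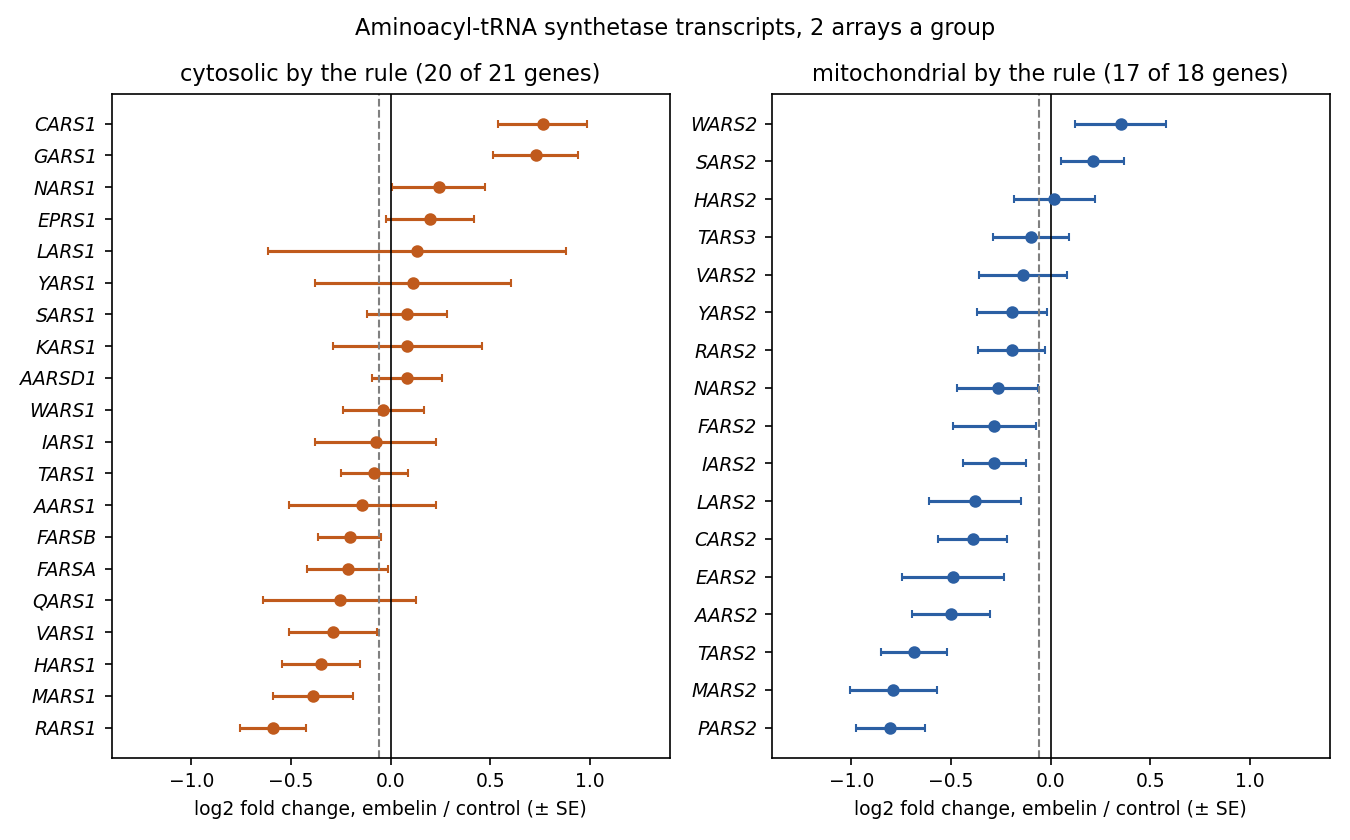
Log2 fold change of embelin over control (x axis) for the cytosolic and mitochondrial synthetase genes reported by name, with bars of 1 SE from the limma fit over 2 arrays a group. The dashed line is the median of all genes tested (-0.06); the cytosolic genes lie on both sides of 0, from -0.59 to 0.76, and 3 of the mitochondrial genes drawn lie above 0.

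The cytosolic and mitochondrial genes differed in how their changes were spread. The 21 cytosolic genes lay on both sides of 0, with 10 above and 11 below, a median log2 fold change of -0.04 and a range of -0.59 to 0.76. Of the 18 mitochondrial genes, 3 lay above 0 and 15 below, with a median of -0.28 and a range of -0.81 to 0.35. Among all genes tested, 56.1% lay below 0 and the median was -0.06, while 9 of the 10 epithelial and A549 markers lay below 0 with a median of -0.14. The difference of the medians, cytosolic minus mitochondrial, was 0.24, and it is given as a description, since genes are not replicates and no test was made over the members.

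The same contrast was then read on single arrays. After subtracting each gene's own mean over its arrays, the median of the 17 mitochondrial genes measured on the 4 arrays was 0.14 in both controls and -0.21 and -0.07 with embelin, so both embelin arrays lay below both controls. The median of the cytosolic genes was -0.03 and 0.08 in the controls and -0.15 and 0.16 with embelin, and the groups overlapped. All genes together gave 0.052 and 0.0046 in the controls and -0.0806 and 0.0003 with embelin. Both embelin arrays were thus below both controls there too, though the replicates numbered 2 nearly met. The cytosolic median minus the mitochondrial one was -0.17 and -0.07 in the controls and 0.06 and 0.23 with embelin. Both embelin arrays were thus above both controls in this difference, which was not tested. Control replicate 1 and embelin replicate 2 had more probes well above background (66.7% and 66.4%) than control replicate 2 and embelin replicate 1 (50.3% and 51.2%). By this share alone the first 2 are called the arrays of lower background and the others the noisier arrays. Background intensities were not compared. The arrays of lower background gave medians of the changes of 0.19 for the cytosolic and -0.25 for the mitochondrial genes, while the noisier arrays gave -0.23 and -0.32. The mitochondrial median was thus below 0 within both pairs, each of 1 array against 1. The cytosolic median differed in sign between the pairs, and its difference from the mitochondrial one was 0.43 and 0.09. What sets the pairs apart was not tested.

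**Figure D2:**
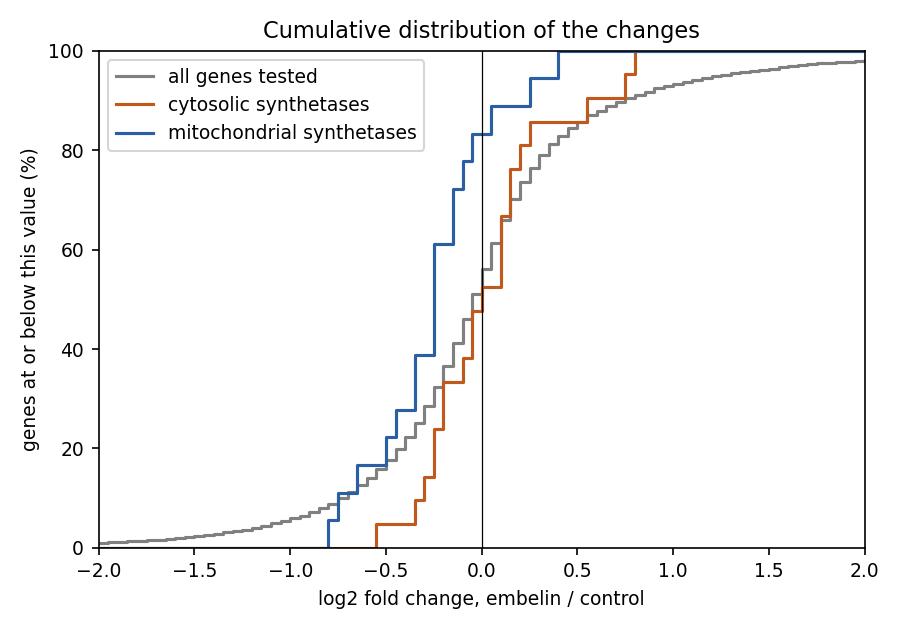
Cumulative share of genes (y axis, percent) at or below each log2 fold change of embelin over control (x axis, read in even steps), for all 17649 genes tested, the 21 cytosolic and the 18 mitochondrial synthetase genes. The mitochondrial curve lies above the others around 0, where 83.3% of its genes are below 0 against 52.4% of the cytosolic genes and 56.1% of all genes.

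Among the cytosolic enzymes, the largest increase was in CARS1, which charges transfer RNA with cysteine. Its log2 signal was 8.76 and 9.19 in control replicates 1 and 2 and 9.66 and 9.81 in embelin replicates 1 and 2. Both embelin arrays lay above both controls, with a log2 fold change of 0.76 ± 0.22 (SE) and a 95% interval of 0.16 to 1.37 (adjusted p = 0.184 by limma). The change was 1.05 within the arrays of lower background and 0.47 within the noisier ones.

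GARS1, the glycyl enzyme, whose gene makes both the cytosolic and the mitochondrial form, read 10.41 and 10.14 in the controls and 10.84 and 11.17 with embelin. The groups did not overlap, and the log2 fold change was 0.73 ± 0.22 (SE), with a 95% interval of 0.14 to 1.32 (adjusted p = 0.190 by limma).

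The lowest change of a cytosolic gene was in RARS1, the arginyl enzyme, whose protein is part of the multisynthetase complex of the cytosol. It read 15.18 and 15.04 in the controls and 14.49 and 14.56 with embelin, so that both embelin arrays were below both controls. The log2 fold change was -0.59 ± 0.17 (SE), with a 95% interval of -1.04 to -0.14 (adjusted p = 0.175 by limma).

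Other cytosolic genes whose embelin arrays were both below the controls were FARSB (-0.21 in log2), a subunit of the phenylalanyl enzyme, VARS1 (-0.29), the valyl enzyme, HARS1 (-0.35), the histidyl enzyme, and MARS1 (-0.39), the methionyl enzyme. With RARS1 these were 5 of 21 (23.8%), and 3 of 21 (14.3%) were above, where 30.7% and 21.1% of all genes measured on the 4 arrays did not overlap in those directions. A second kept probe had the same sign in FARSB (-0.44) and HARS1 (-0.22). In MARS1 it did not, with 10.15 and 11.11 in the controls and 10.42 and 11.12 with embelin, a change of 0.14, so the direction for MARS1 depends on the probe.

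Several cytosolic genes differed more between replicate numbers than between the groups. LARS1, the leucyl enzyme, read 12.76 and 11.25 in control replicates 1 and 2 and 12.87 and 11.40 in embelin replicates 1 and 2. Replicate 1 was the higher in both groups, by 1.49 on average, and the change with embelin was 0.13 ± 0.75 (SE). Its other kept probe did not repeat this, with 10.39 and 9.79 in the controls and 9.96 and 10.57 with embelin.

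In YARS1, QARS1, KARS1 and AARS1, the tyrosyl, glutaminyl, lysyl and alanyl enzymes, replicate 1 was instead the lower in both groups, with differences of -0.95, -0.71, -0.69 and -0.68 in log2 (replicate 1 minus 2). KARS1, whose gene also makes a mitochondrial form, read 10.46 and 11.20 in the controls and 10.59 and 11.23 with embelin. Its log2 fold change of 0.08 had a 95% interval of -0.94 to 1.10, so that a change of nearly 2-fold in either direction was not detectable. A replicate number difference of the same sign in both groups and larger than the change with embelin was found in 10 of 38 members (26.3%) and in 28.7% of all genes.

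**Figure D3:**
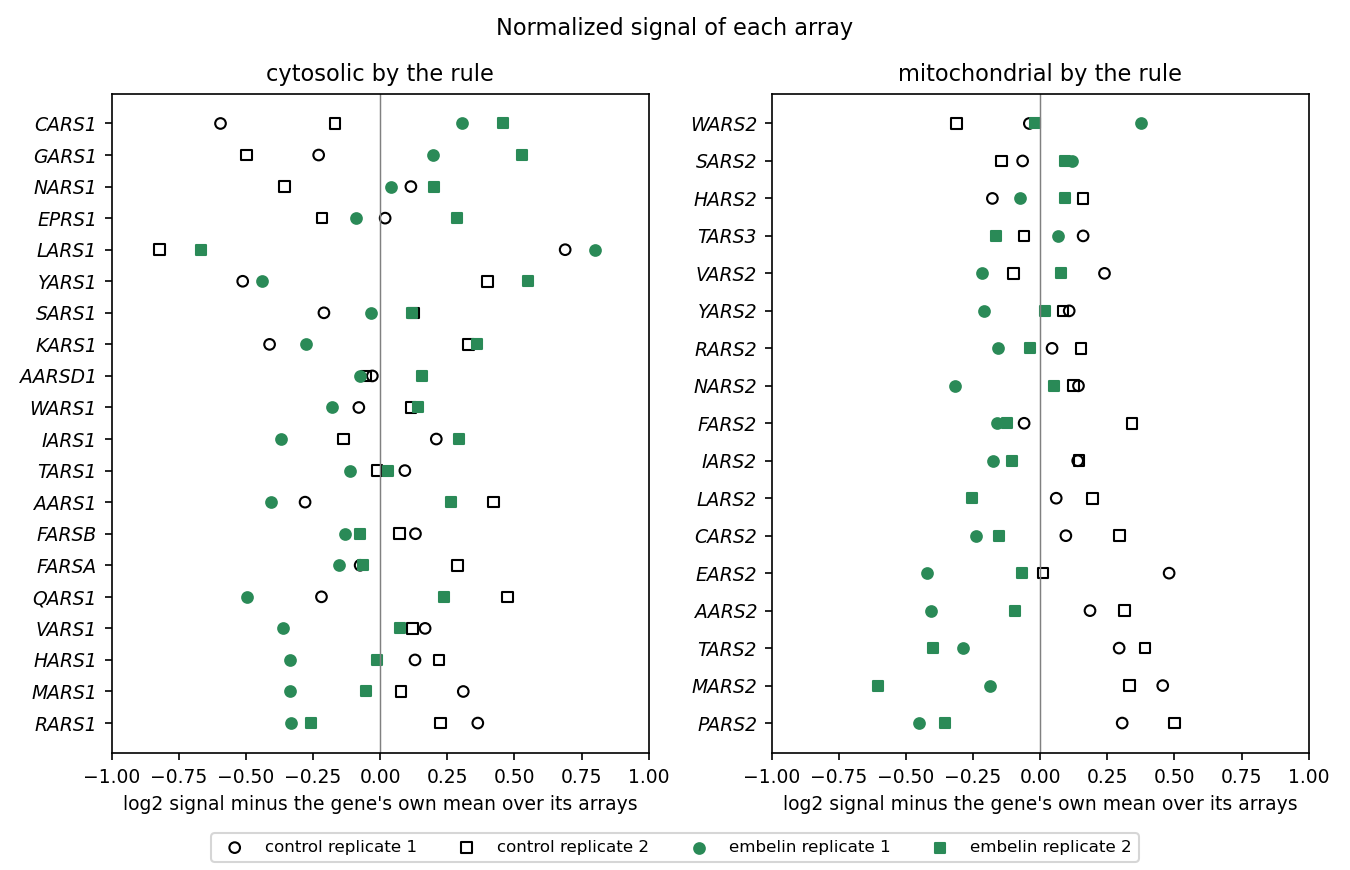
Normalized log2 signal of each array minus the gene's own mean over its arrays (x axis) for the synthetase genes reported by name, with open symbols for control, filled symbols for embelin, circles for replicate 1 and squares for replicate 2. The filled symbols lie apart on the right for CARS1 and GARS1 and apart on the left for RARS1, TARS2, MARS2 and PARS2, while LARS1, YARS1, KARS1, QARS1 and AARS1 split by replicate number; LARS2 has no value on embelin replicate 1.

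Among the mitochondrial enzymes the lowest change was in PARS2, which charges mitochondrial transfer RNA with proline. It read 9.64 and 9.84 in the controls and 8.89 and 8.98 with embelin. Both embelin arrays were below both controls, with a log2 fold change of -0.81 ± 0.17 (SE) and a 95% interval of -1.28 to -0.33 (unadjusted p = 0.00886, adjusted p = 0.116 by limma). A second probe of PARS2 read 8.56 and 8.81 in the controls and 7.84 and 7.96 with embelin, a change of -0.78.

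MARS2, the mitochondrial methionyl enzyme, read 9.14 and 9.02 in the controls and 8.50 and 8.08 with embelin. The groups did not overlap, with a log2 fold change of -0.79 ± 0.22 (SE) (adjusted p = 0.171 by limma), and it was -1.06 within the arrays of lower background and -0.52 within the noisier ones. A dimmer probe of MARS2 gave -1.13 but was well above background on 1 of the 2 embelin arrays. It was thus kept only through the controls, where it is higher, and is no separate support. TARS2, the mitochondrial threonyl enzyme, read 11.28 and 11.37 in the controls and 10.69 and 10.58 with embelin. The groups did not overlap there either, and the log2 fold change was -0.68 ± 0.16 (SE), with a 95% interval of -1.13 to -0.24 (adjusted p = 0.136 by limma).

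AARS2, the mitochondrial alanyl enzyme, read 10.59 and 10.71 in the controls and 9.99 and 10.30 with embelin, a change of -0.50 ± 0.20 (SE) with an adjusted p of 0.279 by limma. In all, 11 of the 17 mitochondrial genes measured on the 4 arrays (64.7%) had both embelin arrays below both controls, where 30.7% of all genes and 5 of the 10 epithelial and A549 markers did, and 2 of 17 (11.8%) had both above, where 21.1% of all genes did. Beside the 4 described, the genes below were EARS2 (-0.49), CARS2 (-0.39), IARS2 (-0.28), FARS2 (-0.28), NARS2 (-0.27), RARS2 (-0.20) and YARS2 (-0.19), which serve glutamate, cysteine, isoleucine, phenylalanine, asparagine, arginine and tyrosine. Of these 7 none reached an unadjusted p under 0.05 by limma, and 1, IARS2, did so by the t-test (p = 0.0153, a two-sided test on 2 against 2 arrays, for which an exact permutation test cannot give a p below 0.333).

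The genes above were WARS2 (0.35), the tryptophanyl enzyme, with 8.82 and 8.55 in the controls and 9.24 and 8.84 with embelin, and SARS2 (0.21), the seryl enzyme, with 10.90 and 10.82 in the controls and 11.08 and 11.05 with embelin. The groups did not overlap in either gene, though in WARS2 the lower embelin array and the higher control array nearly met. HARS2 (0.02) and VARS2 (-0.14) overlapped between the groups. LARS2 read 10.95 and 11.08 in the controls and 10.63 on embelin replicate 2, its spots on the other embelin array having been left out as outliers, and its change of -0.38 rests on that array alone.

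The gene on the array as TARSL2, now TARS3, counted as mitochondrial because its old name ends in 2, although its product is a cytosolic threonyl enzyme, and it changed by -0.10. With TARS3 moved, the genes that make both forms (GARS1 and KARS1) set apart and AARSD1, an editing-domain protein that is no full synthetase, left out, the median was -0.08 for 19 cytosolic genes (7 above and 12 below 0) and -0.28 for 17 mitochondrial genes (3 above and 14 below 0).

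The cytosolic and mitochondrial enzymes for the same amino acid were then set side by side, as changes only, since signals of different probes have no common scale. Of 18 such pairs, 17 could be compared on every array; the leucyl pair could not, because of the missing LARS2 value. The change of the cytosolic partner was above that of the mitochondrial partner in 12 pairs and below it in 5, and the median difference was 0.30 on the log2 scale. EPRS1, which charges glutamate and proline with 1 protein, and FARS2, whose cytosolic counterpart has the subunits FARSA and FARSB, each stand in 2 pairs, so the pairs are not all independent.

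The widest difference was in the cysteinyl pair, with 0.76 for CARS1 and -0.39 for CARS2, a difference of 1.15. The log2 signal of CARS1 minus that of CARS2 was -5.63 and -5.41 in the controls and -4.40 and -4.33 with embelin, so the embelin arrays were apart from the controls. EPRS1 (0.20) differed from PARS2 (-0.81) by 1.00 and from EARS2 (-0.49) by 0.69. The threonyl pair differed by 0.60 and the asparaginyl pair by 0.51, and these 5 pairs had no overlap between the groups. In other pairs with the cytosolic partner above, the differences were 0.40 (methionyl), 0.36 (alanyl), 0.30 (tyrosyl), 0.21 (isoleucyl), and 0.08 and 0.07 (phenylalanyl, with FARSB and with FARSA). The log2 signal of FARSA minus that of FARS2 was 0.99 and 0.95 in the controls and 1.01 and 1.06 with embelin. The groups thus did not overlap in that pair either, though they nearly met. In the rest of these other pairs the groups overlapped.

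The 5 pairs with the mitochondrial partner above were the seryl (-0.13), valyl (-0.15), histidyl (-0.37), tryptophanyl (-0.39) and arginyl (-0.39) pairs. Of all 17 pairs, the groups did not overlap on the cytosolic side in 7 and on the mitochondrial side in 2, and overlapped in 8. The 7 include FARSA with FARS2, whose difference was only 0.07. These counts have no reference, since pairs of other genes were not examined. Among single genes measured on every array, the groups did not overlap in 21.1% (higher with embelin) and 30.7% (lower). With 2 arrays a group, the two-sided exact permutation test gives 0.333 at best, so no pair could pass a threshold by itself.

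**Figure D4:**
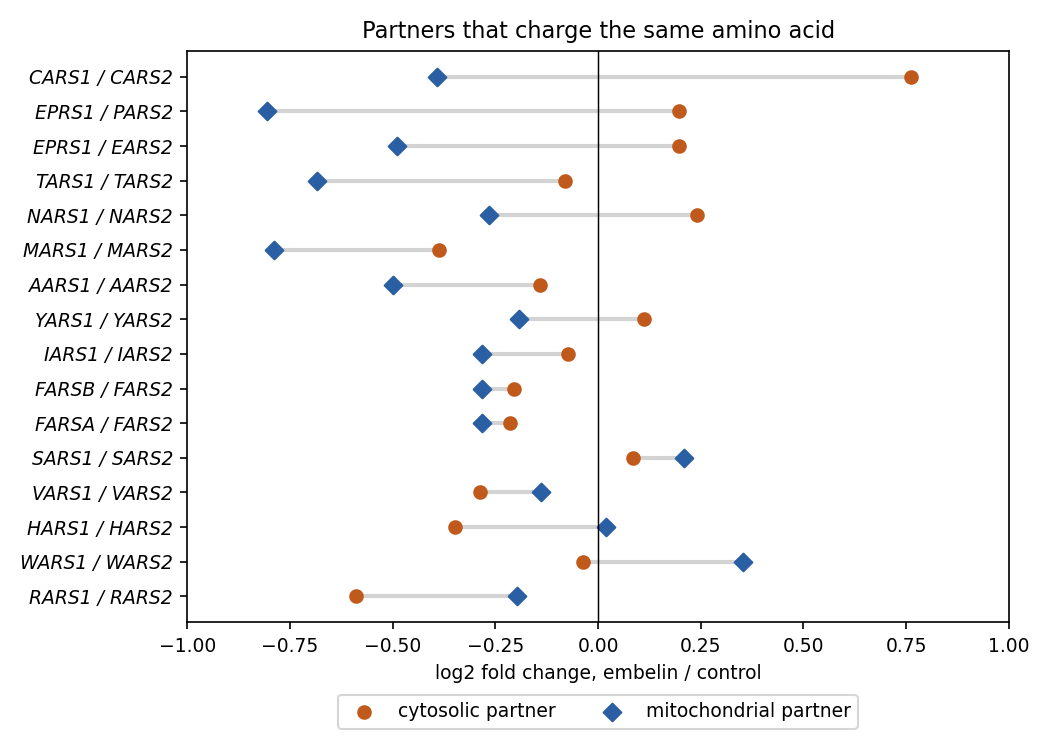
Log2 fold change of embelin over control (x axis) for the cytosolic (circle) and mitochondrial (diamond) enzyme of an amino acid, for the pairs reported by name, ordered by their difference. The cytosolic circle lies to the right in all but 5 pairs, from 1.15 apart for CARS1 and CARS2 to 0.07 for FARSA and FARS2, and to the left in 5.

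HARS1 and HARS2 stand head to head on chromosome 5, with starts 85 bases apart (140691370 on the minus and 140691455 on the plus strand, GRCh38.p14), and their promoter windows share 184 bases. HARS1 read 12.21 and 12.30 in the controls and 11.74 and 12.07 with embelin, a change of -0.35 with both embelin arrays below the controls. HARS2 read 11.87 and 12.21 in the controls and 11.98 and 12.14 with embelin, a change of 0.02 with the groups overlapping.

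The genes with TTGCATCA did not stand apart from the other cytosolic genes with a promoter in the table. The 6 with TTGCATCA had a median log2 fold change of -0.08, 2 above and 4 below 0, from -0.39 in MARS1 to 0.76 in CARS1. The 11 other cytosolic genes with a promoter in the table had a median of -0.04, 5 above and 6 below 0. These 11 include GARS1 (0.73), which has the looser form TGATGNAA, and AARSD1 (0.08), which is no full synthetase. The genes were not grouped again by the looser form. NARS1, the asparaginyl enzyme, read 12.03 and 11.56 in the controls and 11.96 and 12.12 with embelin, and its change of 0.24 lay within the overlap of the groups. IARS1 read 13.69 and 13.35 in the controls and 13.11 and 13.78 with embelin (-0.07), TARS1 13.87 and 13.77 against 13.67 and 13.81 (-0.08), and AARS1 11.54 and 12.24 against 11.42 and 12.09 (-0.14). In these last 3 the groups overlapped as well.

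**Figure D5:**
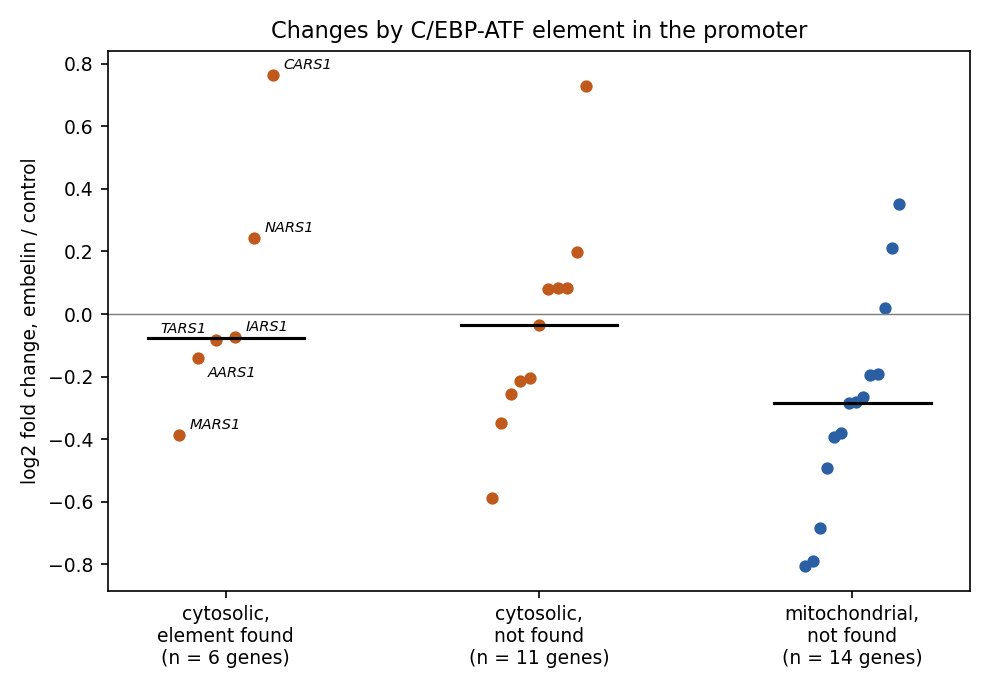
Log2 fold change of embelin over control (y axis) for the cytosolic synthetase genes with TTGCATCA in the promoter (6), the other cytosolic genes with a promoter in the table (11) and the mitochondrial genes with one (14), with a bar at each median. The medians are -0.08 and -0.04 for the cytosolic genes, and CARS1 is the 1 gene with TTGCATCA far above 0. GARS1, which has only the looser form TGATGNAA, is drawn among the other cytosolic genes.

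Most, but not all, of the other genes listed for the ATF4 program lay above 0 in the same cells. A list of 26 ATF4 targets and factors for transfer RNA export was chosen with results of these arrays known and is therefore not independent evidence. Of these 26, limma called 7 higher and 0 lower after adjustment, where 1.25% and 0.561% of all genes were. The median log2 fold change was 0.62, with 22 above 0 and 15.4% below, against a median of -0.06 and 56.1% below 0 among all genes. The largest were ATF3, a stress-induced transcription factor, with 8.55 and 8.24 in the controls and 14.10 and 14.11 with embelin (5.71, adjusted p = 0.0204 by limma), DDIT3, which encodes CHOP (4.24), and PPP1R15A, which encodes a phosphatase subunit that acts on eIF2alpha (3.27). ATF4 itself changed by 0.52 and ASNS, asparagine synthetase, by 0.72, neither called after adjustment (0.199 and 0.127). XPOT, the exporter of transfer RNA from the nucleus, changed by 0.07. PSAT1 (0.04), PHGDH (0.13) and SLC7A11 (0.15) changed little, and the 4 genes below 0 were ALDH1L2 (-0.69), PSPH (-0.33), CTH (-0.32) and SHMT2 (-0.12). The changes of the 7 called genes began at 1.75 (DDIT4), while the highest of a synthetase was 0.76. The 7 were picked by their adjusted p on these same arrays, which with 2 arrays a group favours large changes. This gap therefore does not set the list apart from the synthetases, and ASNS, ATF4 and XPOT of the same list lay below 0.76.

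The gene of eIF2alpha (EIF2S1), its kinases and the subunits of the exchange factor eIF2B gave 0 calls among 10 genes by limma. At an unadjusted p under 0.05, limma counted 1 higher and 0 lower, where 8.36% and 11.1% of all genes were, and the t-test counted 0. The median of the 10 was -0.21. EIF2AK3, the kinase PERK of the endoplasmic reticulum, read 7.88 and 6.72 in the controls and 8.71 and 9.04 with embelin (1.57, adjusted p = 0.176 by limma). EIF2AK2, which encodes PKR, changed by -0.52, and EIF2AK4, the kinase GCN2 that senses uncharged transfer RNA, by -0.39 with the groups overlapping.

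The multisynthetase complex was set against the other cytosolic synthetases by localization. For this TARS3, GARS1 and KARS1 were counted as cytosolic and AARSD1 was left out. The 8 enzymes of the complex had a median of 0.00, with 4 above and 4 below 0, and the 13 genes outside it had a median of -0.08 (5 above and 8 below 0). The scaffold proteins of the complex changed little, with 0.19 for AIMP1, -0.06 for AIMP2 and -0.05 for EEF1E1, none called by limma and none with an unadjusted p under 0.05, though AIMP1 passed that threshold by the t-test. By catalytic fold, the 18 class I enzymes had a median of -0.23 (4 above and 14 below 0) and the 19 class II enzymes of -0.14 (7 above and 12 below 0).

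Among 19 mitochondrial translation factors and enzymes that process or modify mitochondrial transfer RNA, 6 lay above and 13 below 0, with a median of -0.20. The share below 0 was 68.4%, against 83.3% of the mitochondrial synthetases and 56.1% of all genes. In 8 of the 19 (42.1%) both embelin arrays lay below both controls, where 30.7% of all genes did. In 3 (15.8%) both lay above, where 21.1% of all genes did. Limma called 0 of the 19, with 1 higher and 2 lower at an unadjusted p under 0.05, where 8.36% and 11.1% of all genes were, and 1 and 4 by the t-test. The difference from the synthetases was not tested. MTRF1, a release factor of the mitochondrial ribosome, read 8.47 and 8.55 in the controls and 7.52 and 7.72 with embelin (-0.89, adjusted p = 0.0991 by limma). TRNT1, which adds the CCA end to transfer RNA, and GTPBP3, which modifies mitochondrial transfer RNA, both changed by -0.53. The 6 cytosolic elongation factors had a median of -0.04 and a lowest change of -0.18, in EEF2, and 0 were called or had an unadjusted p under 0.05 by limma or by the t-test.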

How the data were processed

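RNA of 2 control and 2 embelin-treated A549 samples was labelled with Cy3 and hybridised to 4 arrays of 1 slide, read in 1 scan. The authors deposited the scanner intensities written by Feature Extraction 10.7.3.1, with background subtracted and arrays not normalized to each other. They were scaled here to a common 75th percentile, as the study's methods name (721, 601, 648 and 739 before, in the order control 1, control 2, embelin 1, embelin 2), given a floor of 1 and log2-transformed. Outlier spots (47 to 743 an array) were left out, spots of a probe averaged, and none was saturated. Precision is limited by there being 4 arrays.

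Of 50238 probes, 28595 were named by accession in RefSeq, 2341 through a probe of the same name and 19302 by the files. Kept were 26146 probes, well above background on both arrays of a group, and the brightest kept probe stood for a gene. Embelin and control were compared in R 4.3.3 with limma 3.58.1 (lmFit, eBayes) and Benjamini-Hochberg adjustment over 17649 genes, after a test of the fit on simulated data. The members, lists, motifs and alternatives were chosen with earlier results of these data known. Every member called, every partner pair and the 3 largest changes of each pathway list were to be named; other members were named for their spread or for a motif, after their values were seen. A few members are left unnamed, and all counts and medians include them.

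Alternatives were normexp background correction, quantile normalization, the deposited table of probe intensities, no filter on dim probes, eBayes with trend and robust, a filter on all 4 arrays, the t-test of the methods, replicate number, array background or position as a term, the mean of probes, each probe alone, compartment by localization, and leaving out each array. With 1 array left in a group, limma assumes that it varies like the others.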

Additional observations from a re-analysis of the deposited data

How the results depend on the processing

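The count of synthetase genes called higher after adjustment was 0 under all 17 alternatives that gave calls. The count called lower was 0 under 16 and 1 with eBayes with trend and robust (RARS1, adjusted p = 0.049 by limma). That setting called 1065 of all genes in either direction, in place of 320 in the main fit. In 9 of the 17 limma or the t-test called 0 of all genes (no filter on dim probes, the t-test, the replicate, background and position terms, and each array left out), so the count of members was bound to be 0 there. Among the other 8, compartment by localization reused the main fit and could not change this count, so only the rest bear on it. The mitochondrial median stayed between -0.32 and -0.23 under all 19 alternatives that gave a median, but several of these could not move it. The replicate, background and position terms left each change as it was, and the 2 other filters on dim probes chose the same member probes (-0.2766 each time). The t-test and eBayes with trend and robust only dropped LARS2 (-0.2708). The cytosolic median and the difference of the medians did not stay in place: within the arrays of lower background they were 0.19 and 0.43, within the noisier ones -0.23 and 0.0873. Leaving out each array in turn gave a cytosolic median of -0.23 (without embelin replicate 2) to 0.16 (without embelin replicate 1), above 0 also without control replicate 2 (0.06), a mitochondrial median of -0.32 to -0.23, and a difference of 0.0868 (without embelin replicate 2) to 0.39 (without embelin replicate 1), which was 0.12 without control replicate 1. For the counts at an unadjusted p under 0.05 the same omissions gave 0 to 1 cytosolic genes higher (3 with all arrays), 0 lower each time (1 with all arrays) and 1 to 3 mitochondrial genes lower (3 with all arrays). These counts were 0 and 0 for cytosolic genes higher and lower with no filter on dim probes, 1 and 2 with the methods' t-test, which gave 1 mitochondrial gene higher, 1 higher with array background as a block and 0 lower with array position. Mitochondrial genes lower numbered 5 with eBayes with trend and robust. With each kept probe on its own, 5 mitochondrial probes were lower, and the probes tested there include the dimmer one of MARS2. The cause of these shifts was not tested, beyond the smaller number of samples or of residual degrees of freedom that some alternatives leave. At an unadjusted p under 0.05, 8.36% of all genes were higher and 11.1% lower in the main fit. By the t-test 15.5% passed in either direction. Such shares are not given for the other fits, so their counts of members have no reference.

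With the replicate number as a block, 0 members were called and the counts at an unadjusted p under 0.05 were 2 cytosolic genes higher, 1 lower and 3 mitochondrial genes lower, and over all genes 0 were called in place of 320. The labels do not say what a number shares, and with 2 pairs the deviations of same-numbered samples correlated at 0.646 over 38 members and 0.175 over 17298 genes (across genes, which are not independent). The 95% intervals are wide even for steady genes, such as -0.64 to 0.23 for FARSB, and small changes were not detectable with 2 arrays a group.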
